A study of Mus musculus with 12 samples.

Results

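The Alkbh family, the paralogues of the RNA demethylase Fto, was followed by RNA-seq in 3T3-L1, a line of mouse fibroblasts used as a model of fat cell formation because a hormone mixture drives it into adipocytes. Its members were found by symbol in a table of 55487 genes. All 8 listed members, Alkbh1 to Alkbh8, were found, no symbol was repeated, and all 8 passed the filter (1 TPM or more in 2 or more of the 12 libraries), as did 15968 genes in all. TPM is a length-corrected share of all transcripts, so levels of different genes can be set side by side. The cells carried a lentiviral short hairpin, either a scrambled control (shScram) or one that targets Fto (shFto), and were collected as preadipocytes (Pre), at mitotic clonal expansion (MCE) and as differentiated cells (Diff), with 2 libraries in each of the 6 groups. None of these groups received rhein. Which of the hairpins designed against Fto was sequenced is not given in the sources used here, so an effect of the hairpin other than on Fto cannot be told apart from that of Fto loss. The comparison asks whether Fto relatives changed when Fto was depleted.

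AlkB proteins are iron-dependent and oxoglutarate-dependent dioxygenases, most of which oxidise methyl groups on DNA, RNA or protein. Fto and Alkbh5 act on the methylated adenosine m6A in RNA, which makes them the known erasers of that mark. The other members have other substrates, from damaged DNA bases to tRNA.

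The members lie on 7 chromosomes of GRCm38. Alkbh1 (ENSMUSG00000079036) spans chr12:87425840-87444017, Alkbh2 chr5:114123926-114128218 and Alkbh3 chr2:93980550-94010807, all on the minus strand. Alkbh4 spans chr5:136136146-136141615, Alkbh5 chr11:60536381-60558512, Alkbh6 chr7:30308717-30314304, Alkbh7 chr17:56997339-56999322 and Alkbh8 chr9:3335140-3391154, all on the plus strand. Only Alkbh2 and Alkbh4 share a chromosome.

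The metal site of the family is held by a His-X-Asp motif. The coding sequence around it is shown for Fto and for the 3 members on which the results below turn most and in which the motif occurred once and in 1 exon. Each stretch is 45 bases of the coding strand, from GENCODE M21 transcripts on GRCm38, with the motif codons in capitals. They lie in exon 3 of Fto (chr8:91409763-91409807, plus strand), exon 5 of Alkbh1 (chr12:87431423-87431467, minus strand), exon 8 of Alkbh3 (chr2:93996255-93996299, minus strand) and exon 1 of Alkbh5 (chr11:60539017-60539061, plus strand).
Fto: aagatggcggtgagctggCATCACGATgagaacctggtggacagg
Alkbh1: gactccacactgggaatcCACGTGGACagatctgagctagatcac
Alkbh3: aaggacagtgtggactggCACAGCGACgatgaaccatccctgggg
Alkbh5: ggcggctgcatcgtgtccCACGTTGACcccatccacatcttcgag
The first histidine is codon 228 of Fto, 231 of Alkbh1, 191 of Alkbh3 and 205 of Alkbh5. The 4 genes thus share a motif of the same form, with different codons around it.

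The depth of the libraries is unknown, because TPM sets every library to one total. The shScram Pre replicates agreed less well than those of the other groups. The correlation of log2(TPM + 1) across genes, which are not independent replicates, was 0.939 between the shScram Pre replicates and 0.990 to 0.993 in the other groups. This correlation does not tell which of them is the odd one. Replicate 1 of shScram Diff has a title that names shScram and a treatment entry that names the knockdown, and was placed by its title. Its Fto level, 73.5 TPM, lay with that of the other shScram libraries. The summed TPM of 8 adipocyte markers was 22.0 to 31.5 in Pre libraries. At MCE the shScram libraries held 311 and 322 against 97.4 and 103 for shFto, and at Diff 1256 and 1213 against 199 and 177. Adipoq, the adipocyte hormone adiponectin, was at 0 in the 4 Pre libraries, and at Diff it reached 77.2 and 72.4 TPM in shScram but 6.05 and 3.66 TPM with the Fto hairpin. Each effect of the knockdown at MCE and Diff is therefore measured between lines that differ in adipocyte marker levels, and in bulk RNA fewer cells of a type and less RNA per cell cannot be told apart. Of the 8 markers, 3 to 4 reached 1 TPM in Pre libraries and 6 to 7 later, and Lep, the hormone leptin, was listed at 0 in all but 1 library. Their part in the results was not tested.

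Fto fell to 9.96% of the control mean in Pre, 10.8% at MCE and 10.1% at Diff. The 6 shScram libraries held 52.7 to 73.5 TPM of Fto and the 6 shFto libraries 5.51 to 7.47 TPM, without overlap. The log2 difference averaged -3.09 over the stages (exact permutation of the lines within each stage, two-sided, p = 0.00926, the lowest that this design can give).

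Alkbh5 and Alkbh3 were the most abundant members. Over the 12 libraries Alkbh5 averaged 71.2 TPM, Alkbh3 56.0, Alkbh6 24.6, Alkbh1 21.3, Alkbh7 15.2, Alkbh4 12.2, Alkbh8 9.95 and Alkbh2 5.17 TPM. Neighbours in this order were not all distinct. Alkbh3 was above Alkbh6, and Alkbh8 above Alkbh2, in 12 of 12 libraries. Alkbh5 was above Alkbh3 in 8 libraries and lay clear of it in 3 groups, while in 1 group Alkbh3 lay clear above. Alkbh6 exceeded Alkbh1 in 7 libraries, Alkbh1 exceeded Alkbh7 in 8, Alkbh7 exceeded Alkbh4 in 10 and Alkbh4 exceeded Alkbh8 in 11.

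**Figure D1:**
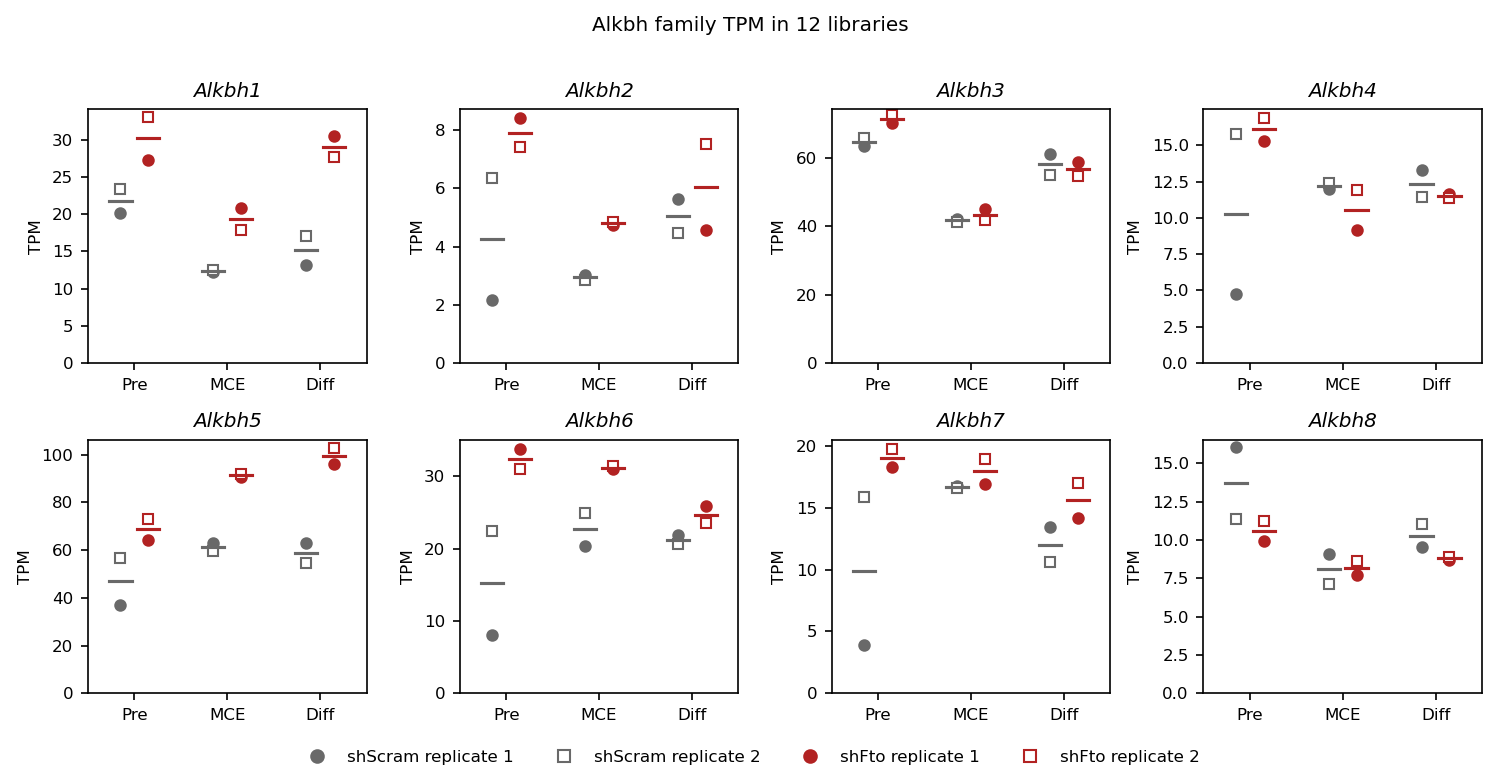
TPM of each Alkbh gene (vertical axis, from 0) in 12 libraries by stage, with shScram in grey and shFto in red, filled circles for replicate 1, open squares for replicate 2 and a line at each group mean. Alkbh1 and Alkbh5 sit higher in shFto at each stage, and replicate 1 of shScram Pre is low for Alkbh2, Alkbh4, Alkbh6 and Alkbh7.

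Averaged over the stages, 3 of 8 members were higher in shFto and none lower. The 3 were Alkbh1, Alkbh5 and Alkbh6 (limma, Benjamini-Hochberg adjusted over all genes). Of all tested genes, 24.5% were called higher and 18.3% lower in this comparison and 42.8% in either direction, so the family's 3 of 8 (37.5%) is close to the share of the whole table. The median log2 difference was 0.53 over the members and 0.06 over all genes, and the former was 0.29 without replicate 1 of shScram Pre, 0.71 without replicate 2 and 0.20 with GC correction. Nothing is read from the count itself. Under the study's own rule, a fold over 2 or under 0.5 with an unadjusted p under 0.05, 0 of 8 members were called over the stages, at MCE, at Diff or between stages, and 2 in Pre (Alkbh6 and Alkbh7). The rule was applied here to limma values on log2(TPM + 1), whereas the authors applied theirs to DESeq2 results. By that rule 7.35% of all genes were called over the stages, 15% in Pre, 9.01% at MCE and 11% at Diff. From Pre to MCE it called 19.7% in shScram and 16% in shFto, and from MCE to Diff 12.1% and 13.9%. The settings counted below all use the adjusted p, and the fold criterion is not among them.

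Alkbh5, the other m6A eraser, was higher in shFto at every stage. Its levels in shScram were 37.2 and 56.9 TPM in Pre, 63.1 and 59.9 at MCE and 63.0 and 54.6 at Diff. In shFto they were 64.3 and 73.1, 90.8 and 92.0, and 96.2 and 103 TPM. The groups did not overlap at any stage. The fold change over the stages was 1.55 (log2 0.63 ± 0.11 SE, 95% interval 0.39 to 0.87, adjusted p = 0.00181). At the single stages log2 was 0.56 in Pre (adjusted p = 0.0494), 0.57 at MCE (adjusted p = 0.0683) and 0.75 at Diff (adjusted p = 0.0197). The MCE difference was called in 7 of 23 settings, among them the fit on the MCE libraries alone. Over all settings its log2 ran from 0.41 to 0.60. The mean effect kept its call in the 22 alternative settings with the adjusted p (log2 0.52 to 0.73) and lost it under the fold rule. The call in Pre was kept in 5 of 23 settings, and among the fits with 1 library left out only in that without replicate 2 of shScram Pre. Without replicate 1 of shScram Pre its log2 was 0.26 with an adjusted p of 0.0952. The call at Diff was kept in 19 of 23 settings and lost whenever 1 Diff library was left out, with values from 0.65 to 0.86.

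Alkbh1, which acts on tRNA and in mitochondria, was higher in shFto by a like factor. Its shScram levels were 20.1 and 23.4 TPM in Pre, 12.3 and 12.6 at MCE and 13.2 and 17.1 at Diff. In shFto they were 27.3 and 33.0, 20.9 and 17.8, and 30.5 and 27.7 TPM. Again the groups did not overlap at any stage. The fold change over the stages was 1.57 (log2 0.65 ± 0.10 SE, interval 0.43 to 0.87, adjusted p = 0.000871), and it was called in 22 of 22 settings with the adjusted p (log2 0.55 to 0.71) but not under the fold rule. The log2 difference was 0.45 in Pre (adjusted p = 0.0715), 0.60 at MCE (adjusted p = 0.0387) and 0.90 at Diff (adjusted p = 0.00536). The MCE call was kept in 12 of 23 settings and lost without any 1 of the 4 MCE, 2 shFto Pre or 2 shFto Diff libraries. The Diff call was kept in 23 of 23 (log2 0.73 to 1.08), and lost under the fold rule.

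Alkbh6, a less studied member, stood at 8.06 and 22.4 TPM in shScram Pre, 20.4 and 25.0 at MCE and 21.8 and 20.6 at Diff. In shFto it was at 33.8 and 31.0, 31.0 and 31.4, and 25.9 and 23.5 TPM. The shFto libraries were above at each stage, with a fold in mean TPM of 2.12 in Pre, 1.37 at MCE and 1.16 at Diff. The fold in Pre depends on which shScram Pre library is used. A difference between stages was not shown (moderated F-test of limma, unadjusted p = 0.173). Its call over the stages (log2 0.62 ± 0.20 SE, adjusted p = 0.0361) was kept in 11 of 22 settings, and of the 12 fits that left out 1 library it was kept only in those without 1 of the shScram Pre libraries. Without replicate 1 of shScram Pre the log2 value was 0.39 (adjusted p = 0.000626), and in Pre alone it was 0.51 (adjusted p = 0.0155) in place of 1.20 (adjusted p = 0.0357). The call in Pre was kept in 10 of 23 settings.

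The repair enzymes Alkbh2 and Alkbh3, which remove alkyl groups from DNA bases and, for Alkbh3, from RNA, did not pass the test. Alkbh2 was at 2.18 and 6.37 TPM in shScram Pre, 3.03 and 2.86 at MCE and 5.63 and 4.47 at Diff, against 8.41 and 7.41, 4.75 and 4.86, and 4.57 and 7.51 TPM in shFto. The lines were separate in Pre and MCE and overlapped at Diff (mean effect log2 0.54, interval 0.08 to 1.01, adjusted p = 0.0591). The mean effect of Alkbh2 was called without replicate 1 of shScram Pre, at 0.34 (adjusted p = 0.0371), and without replicate 2, at 0.74 (adjusted p = 0.000380), and was 0.13 with GC correction (adjusted p = 0.341). Alkbh3 had the tightest interval, -0.09 to 0.20 around 0.05 (adjusted p = 0.504). Its shScram and shFto means were 64.6 ± 1.58 and 71.4 ± 1.68 TPM in Pre, 41.8 ± 0.678 and 43.4 ± 2.25 at MCE, and 58.1 ± 4.24 and 56.8 ± 2.93 at Diff (SD, n = 2). The 95% interval places any mean change of Alkbh3 between a fold of 0.941 and 1.15.

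Alkbh4, Alkbh7 and Alkbh8 were not called over the stages. Alkbh7, a mitochondrial protein linked to fat metabolism, had a higher TPM in shFto than in shScram at each stage, with a mean log2 of 0.53 (interval -0.06 to 1.11, adjusted p = 0.129). Without replicate 1 of shScram Pre the mean of Alkbh7 was 0.23 (adjusted p = 0.0338) and without replicate 2 it was 0.82 (adjusted p = 1.03e-05), both called. Its shScram Pre libraries held 3.94 and 15.9 TPM, against 18.3 and 19.7 TPM in shFto. Alkbh4 gave a mean log2 of 0.17 (interval -0.35 to 0.69, adjusted p = 0.572), with 4.75 and 15.7 TPM in shScram Pre. Alkbh8, the tRNA methyltransferase of wobble uridines, had a mean of -0.17 (interval -0.42 to 0.08, adjusted p = 0.230), which became 0.02 with GC correction. The mean of Alkbh3 turned to -0.06 with GC correction and to -0.04 with quantile normalization. That of Alkbh4 turned to -0.13 with GC correction and to -0.09 without replicate 1 of shScram Pre. Without replicate 2 of shScram Pre, Alkbh4 was called higher at 0.43 and Alkbh8 lower at -0.25.

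Across the single stages, the calls were 2 of 8 in Pre (Alkbh5 and Alkbh6), against 15.9% of genes called higher, 1 of 8 at MCE (Alkbh1), against 10.5%, and 2 of 8 at Diff (Alkbh1 and Alkbh5), against 11.9%. No member was called lower at a single stage, against 12.3%, 7.26% and 9.31% of genes. Both shFto libraries were above both shScram libraries for 6 of 8 members in Pre, 5 at MCE and 4 at Diff. The shares of all genes were 33.6%, 41.1% and 39%. Both were below for 1 member at each stage (Alkbh8 in Pre and at Diff, Alkbh4 at MCE), against 26.9%, 30.3% and 34% of genes. Alkbh1, Alkbh5, Alkbh6 and Alkbh7 were above at all 3 stages, as were 16.6% of genes, and no member was below at all 3, as were 10.1%. No member's effect was shown to differ between stages. By the moderated F-test of limma, 0 of 8 were called, against 8.68% of genes, and none had an unadjusted p under 0.05 (the lowest was 0.173, for Alkbh6).

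**Figure D2:**
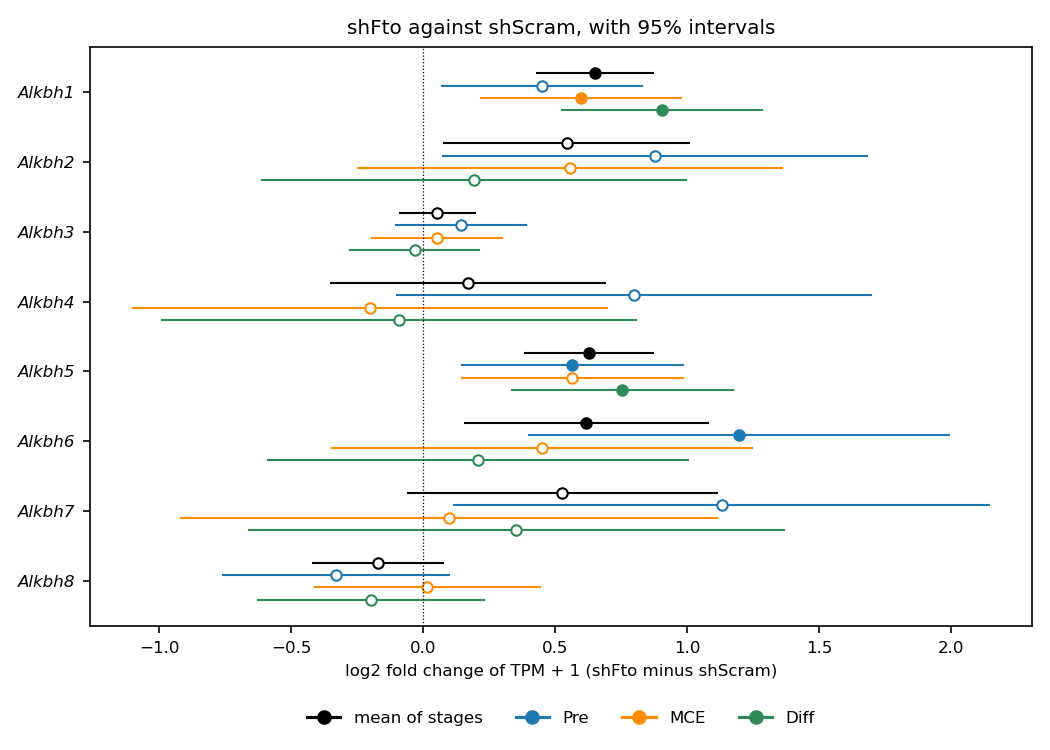
Difference between shFto and shScram on the log2(TPM + 1) scale (horizontal axis) for each member, with 95% intervals from limma, as the mean of stages (black), Pre (blue), MCE (orange) and Diff (green). Filled points had an adjusted p under 0.05, which holds for the means of Alkbh1, Alkbh5 and Alkbh6.

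Much of the Pre difference of the GC-rich members moved with 1 library. In replicate 1 of shScram Pre, Alkbh7 was at 0.248, Alkbh4 at 0.302, Alkbh2 at 0.343 and Alkbh6 at 0.359 of its level in replicate 2. The transcripts of these 4 members had a GC content of 55.7% to 59.2%. Alkbh8, with a GC content of 40.2%, was at 1.41 of its replicate 2 level. Over all tested genes the median log2 gap between the replicates was 0.59 for genes under 40% GC and -0.93 for those of 55% to 60%. With a correction for GC content the mean effects of Alkbh1, Alkbh5 and Alkbh6 were 0.70, 0.59 and 0.27, all called, whereas those of Alkbh2, Alkbh7 and Alkbh4 were 0.13, 0.27 and -0.13.

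**Figure D3:**
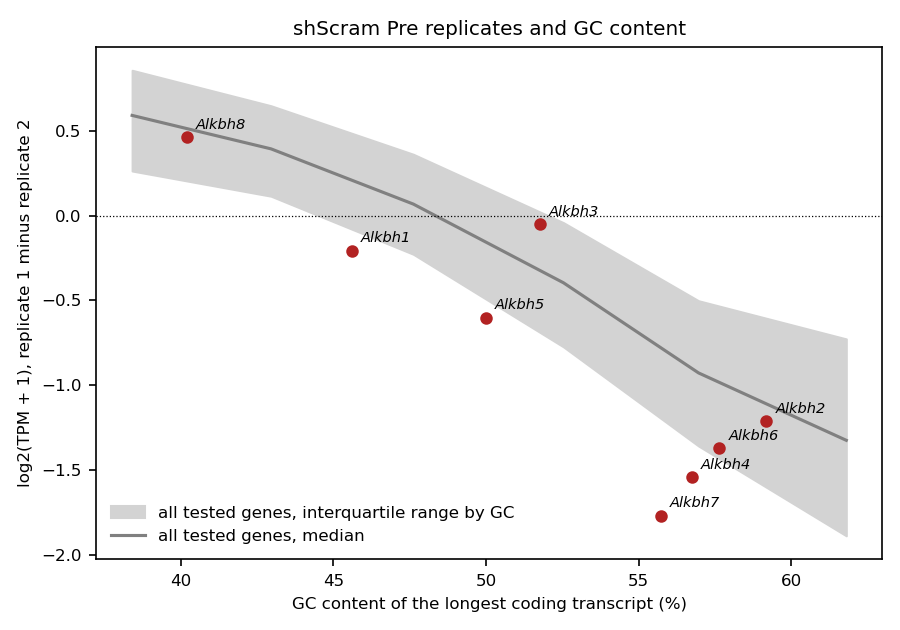
Gap in log2(TPM + 1) between replicates 1 and 2 of shScram Pre (vertical axis) against the GC content of the longest coding transcript in percent (horizontal axis), with members as red points and all tested genes as a grey median line with an interquartile band. Alkbh2, Alkbh4, Alkbh6 and Alkbh7 lie lowest and Alkbh8 highest.

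In TPM, the summed level of the family was higher in shFto at each stage. The 8 members summed to 156 and 218 TPM in shScram Pre against 248 and 265 in shFto Pre, to 179 and 178 against 226 and 227 at MCE, and to 201 and 185 against 250 and 254 at Diff. The shFto sums did not overlap with those of shScram at any stage, and no test was run on them. Fto lost 50.0, 51.2 and 64.9 TPM, the sum gained 69.4, 48.5 and 59.1 TPM and Alkbh5 alone gained 21.7, 29.9 and 40.8 TPM at the successive stages. Without replicate 1 of shScram Pre the gain of the sum in Pre was 38.4 TPM, and both shFto sums still lay above the other shScram library. Without replicate 2 that gain was 100 TPM. Compensation for Fto was not tested, and the members differ in their substrates. Alkbh5 was at 0.706 to 1.08 times the level of Fto in shScram libraries and at 11.7 to 15.3 times in shFto libraries. These are transcript levels, and protein or demethylase activity was not measured in these files.

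**Figure D4:**
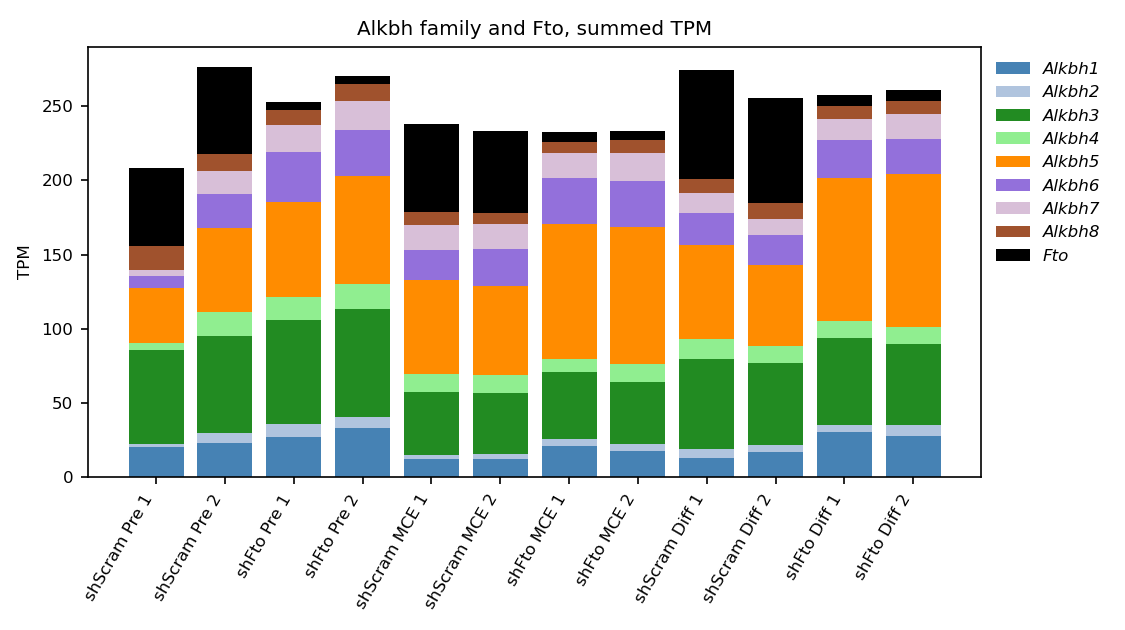
TPM of the 8 Alkbh genes and Fto (black) stacked in each of 12 libraries (vertical axis, from 0). Fto shrinks from at least 52.7 TPM in shScram to at most 7.47 TPM in shFto, while the coloured part is higher in shFto at each stage.

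The family also moved with the stages, and here a shift of the whole table has to be read beside it. From Pre to MCE the median gene changed by -0.17 in shScram and -0.18 in shFto on the log2 scale. From MCE to Diff it changed by 0.23 and 0.17. Median-ratio scaling moved these 4 medians by 0.21, 0.22, -0.25 and -0.20. Of the genes called between Pre and MCE, 31.1% were higher in shScram and 30.6% in shFto, and under that scaling 53.1% and 50.2%. For MCE to Diff the shares were 79.3% and 75.7%, and 51.4% and 54.8% under the scaling. A fall of a member is therefore read against the table's own shift. Alkbh3 fell from Pre to MCE in both lines, by 0.62 in shScram (adjusted p = 0.00257) and by 0.71 in shFto (adjusted p = 0.00136), and its rise to Diff was 0.46 (adjusted p = 0.0147) and 0.38 (adjusted p = 0.0302). The fall in shFto was kept in 23 of 23 settings with the adjusted p and that in shScram in 21, and both were lost under the fold rule. Both rises were lost under median-ratio scaling, quantile normalization and GC correction, and without either shScram MCE library. That in shScram was also lost without replicate 1 of shScram Diff, and that in shFto without any 1 of the shFto MCE or shFto Diff libraries.

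Alkbh1 fell from Pre to MCE by 0.76 in shScram (adjusted p = 0.00768) and by 0.61 in shFto (adjusted p = 0.0238). The first call was lost with GC correction (-0.40), on the compared libraries alone and with array weights, and the second under both scalings and without replicate 2 of shFto Pre or either shFto MCE library. In shFto it then rose by 0.57 to Diff (adjusted p = 0.0352), a call lost under both scalings and GC correction, and without any 1 of the MCE or shFto Diff libraries. In shScram the change to Diff was 0.26 (adjusted p = 0.294). Alkbh8 fell by 0.68 from Pre to MCE in shScram (adjusted p = 0.0200), a call that was lost without replicate 1 of shScram Pre, where the value was -0.45, without replicate 2 of shScram MCE, under both scalings, with GC correction (-0.077), on the compared libraries alone and with array weights. In all, 3 of 8 members fell from Pre to MCE in shScram, against 26.9% of genes, and 2 of 8 in shFto, against 19.9%. From MCE to Diff 1 rose in shScram and 2 in shFto, against 20% and 20.2% of genes. Alkbh5 was not called between stages, with log2 changes of 0.41 from Pre to MCE in both lines (adjusted p = 0.109 and 0.136). Its rise from Pre to MCE was called in both lines under both scalings and with GC correction, where it was 0.56 in shScram (adjusted p = 0.0101) and 0.58 in shFto (adjusted p = 0.00883). It was called in 4 of 23 settings in shScram and 8 of 23 in shFto, and in shScram it was 0.11 without replicate 1 of shScram Pre and 0.71 without replicate 2. The lines share no library, but each stage change shares its MCE libraries with the next.

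**Figure D5:**
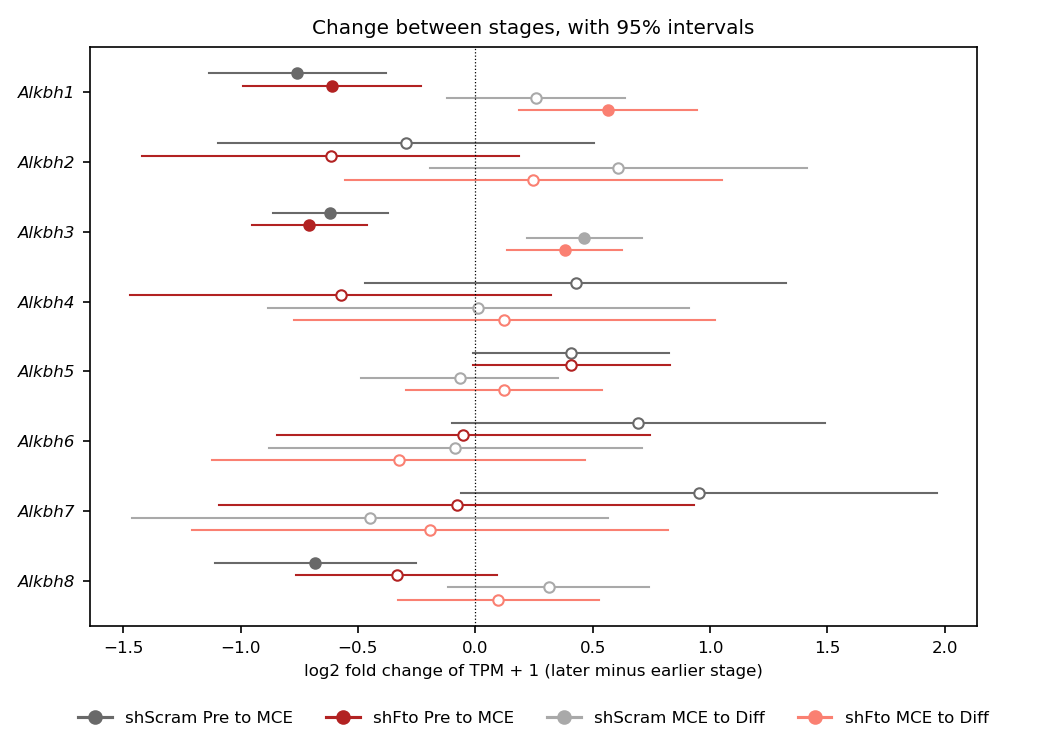
Change between successive stages on the log2(TPM + 1) scale (horizontal axis) for each member, with 95% intervals from limma, in shScram (greys) and shFto (reds). Filled points had an adjusted p under 0.05, as for the falls of Alkbh1 and Alkbh3 from Pre to MCE in both lines.

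Other genes of the same processes gave mixed counts over the stages. Of 10 genes of the m6A writer complex and related methyltransferases, 0 were higher and 2 lower. Mettl14, the RNA-binding partner of the catalytic subunit, had a log2 of -0.58 (adjusted p = 0.00138) and Mettl16 -0.21 (adjusted p = 0.0395). Of 10 m6A readers, 2 were higher and 3 lower, with Ythdf1 at 0.49 (adjusted p = 0.00295), and Ythdf3 at -0.49 (adjusted p = 0.00632). Of 11 alkylation repair genes 3 were higher and 1 lower. Xrcc1, a scaffold of strand break repair, was at 0.74 (adjusted p = 0.00528), and Apex1, the abasic site endonuclease, at -0.71 (adjusted p = 0.00590). Of 18 tRNA modification genes 6 were higher and 3 lower. Elp5, a subunit of Elongator, was at 0.62 (adjusted p = 0.000875) and Trmt61a, a subunit of the enzyme that makes m1A in tRNA, at 1.11 (adjusted p = 0.00371). Trmt61b, which makes m1A in mitochondrial RNA, was at 1.09 (adjusted p = 0.000459). Its level was near the floor, with a mean of 0.196 TPM in shScram and 1.58 TPM in shFto. The shares called were 20%, 50%, 36.4% and 50% in the order given, beside 42.8% of all genes. The medians of the 4 lists were -0.09, -0.16, 0.10 and 0.19, beside 0.06 for all genes.

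Several members share exon sequence with a neighbour, and strand use in the counting is not stated. Alkbh1 exons overlap Slirp, an RNA-binding protein gene on the other strand, by 122 bases. Slirp averaged 25.7 TPM in the control line against 23.1 TPM with the Fto hairpin (log2 -0.15, adjusted p = 0.317). Alkbh2 shares 329 bases with Usp30, a mitochondrial deubiquitinase gene on the other strand, which gave a log2 of -0.09 (adjusted p = 0.527). Alkbh5 shares exon bases with no annotated gene. Alkbh3 shares 85 bases with its antisense gene Alkbh3os1, which gave -0.12 (adjusted p = 0.468). None of these 3 neighbours was called over the stages. Alkbh3 also shares 172 bases with Gm27027 and Alkbh6 371 bases with Gm24757, both below the filter, and whether reads were shared was not tested.

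For each member the 2 genes with the most similar log2(TPM + 1) over 12 libraries were taken from 10099 genes, as a description only. For Alkbh5 they were Sbno2 and Coq8b (r = 0.978 and 0.972), and for Alkbh1 Heatr5a and Rbms1 (r = 0.968 and 0.965). For Alkbh3 they were Pnpla7 and Pacs2 (r = 0.971 and 0.969). Alkbh6 was closest to Mrps26 and Cib1, Alkbh7 to Mlf2 and Tlnrd1, Alkbh4 to Bri3 and Spsb2, Alkbh2 to Cul7 and Pigo and Alkbh8 to Tasor2 and Zfp655, with r from 0.954 to 0.987. Within the family the pair Alkbh6 and Alkbh7 had an r of 0.935, and 0.698 without the shScram Pre libraries. The libraries share their preparation, and the less alike shScram Pre libraries are among the points.

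The sequences before the RefSeq starts of the family were searched for short motifs. The window was 250 bases before each RefSeq start on GRCm38.p6, with 10 windows for the 8 members, and both strands were searched for 9 motifs. The letters CCGGAAG, an ETS site, occurred for 4 members (Alkbh1, Alkbh2, Alkbh3 and Alkbh4) and in 6.91% of all promoters. CCAAT occurred for 4 members and in 33.9% of promoters, and GGGCGG, a GC box, for 4 and in 32.7%. CACGTG, an E-box, occurred for 1 member and in 6.02%, and AAGATGGC, a YY1 site, for 1 and in 1.56%. A member was counted if any of its windows held the letters, and Alkbh4 had several, whereas the shares are per promoter. The CCAAT and YY1 letters of Alkbh4 lay before a start 2635 bases inside its span. Member windows held from 4 CpG (Alkbh8) to 24 CpG (Alkbh4), against a median of 6 over all promoters. TGACGTCA and the shorter TGACG inside it, TGAGTCA and the NRF1 site occurred for none. The ETS stretches and the region before the Alkbh5 start are shown with the motif letters in capitals, on the strand of the gene (minus for Alkbh1, Alkbh2 and Alkbh3, plus for Alkbh4 and Alkbh5). The RefSeq starts differ from the GENCODE gene spans given above. That of Alkbh5 lies 1302 bases and that of Alkbh1 178 bases inside the span, so the stretches printed for these genes are within their annotated spans.
Alkbh1 (chr12:87443875-87443901): agtcgtgaccCCGGAAGaacctgccag
Alkbh1 (chr12:87443840-87443864): tcgagttctgCTTCCGGgccaaact
Alkbh2 (chr5:114128235-114128261): ggcgctgtgcCCGGAAGtcccgcgtag
Alkbh3 (chr2:94010827-94010853): gggctacccaCCGGAAGcggaagcggt
Alkbh4 (chr5:136136055-136136081): tccgttgcgaCCGGAAGgaagtagaac
Alkbh5 (chr11:60537629-60537682): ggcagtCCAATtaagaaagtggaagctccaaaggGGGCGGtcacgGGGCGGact
Of the 3 members called higher over the stages, Alkbh1 held the ETS letters and Alkbh5 and Alkbh6 held CCAAT and GC box letters. Members not called held them too. These were Alkbh2, Alkbh3 and Alkbh4 for ETS, Alkbh4 and Alkbh7 for CCAAT, and Alkbh2 and Alkbh4 for the GC box. These matches describe the letters only.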

How the data were processed

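RNA-seq of fragmented total RNA was analysed for 12 libraries of 3T3-L1 cells. The authors used Trim Galore 0.6.5 for trimming, HISAT2 2.1.0 for alignment (GRCm38) and StringTie 2.1.4 with Ensembl release 102 for the TPM they deposited. For their own comparisons the authors used DESeq2 1.30.1. Since TPM does not keep the depth, it is unknown here, and the precision is limited by 2 libraries in a group. Nothing says whether replicates came from separate cultures, so p-values measure the spread between these libraries.

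Genes were tested in limma 3.58.1 (R 4.3.3) on log2(TPM + 1), which understates changes of low genes, with a mean per group, eBayes with trend, 6 residual degrees of freedom, two-sided, and Benjamini-Hochberg adjustment over 15968 genes at 0.05. In simulated data for the mean of stages, 64 of 200 genes changed by a log2 of 0.5 and 160 of 200 changed by 1 were called. For the single stage simulated, MCE, these were 0 and 79 of 200. Only 200 of the 15968 genes were changed there, whereas 42.8% of genes were called over the stages in the data. Each gene was also given 1 spread, pooled over the groups, in all libraries. The simulated counts are therefore not the power of the tests reported here. Sequences came from GENCODE M21 and RefSeq tables. The members, lists and motifs were chosen with earlier results of these data known. All members and Fto were named, with up to 3 genes per list (lowest adjusted p over the stages) and the 2 genes most alike to each member. Libraries of rhein-treated cells and immunoprecipitated RNA were not analysed here.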

Additional observations from a re-analysis of the deposited data

How the results depend on the processing

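The alternatives were another pseudocount, other filters, other scalings, a GC correction, other estimates of the spread, the study's fold-change rule and each library left out. The mean effects of Alkbh1 and Alkbh5 kept their direction and call in 22 of 22 settings that used the adjusted p, and lost the call under the study's fold-change rule. Depth could not be assessed from TPM.

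Counts of members called, of 8, moved as follows. For the knockdown in Pre the count of 2 became 1 with a pseudocount of 0.1, without the trend and with the replicate block, and 0 without a filter, when fitted on the libraries compared alone and with array weights. At MCE the count of 1 became 0 without a filter, with quantile normalization, with the replicate block and with the study's rule, 2 with median-ratio scaling and GC correction, and 4 when fitted on the libraries compared alone and with array weights. Of all genes, 37.0% were called at MCE on the libraries compared alone and 44.0% with array weights, against 17.8% in the main fit. Under the study's rule (a fold over 2 or under 0.5 with an unadjusted p under 0.05) the counts at Diff, for the mean of stages and for all 4 stage changes were 0, and the 2 in Pre were Alkbh6 and Alkbh7 in place of Alkbh5 and Alkbh6. For shScram from Pre to MCE the count of 3 became 0 when fitted on the libraries compared alone and with array weights, and 5 with GC correction. The 3 were all lower, the 5 were 3 higher (Alkbh5, Alkbh6 and Alkbh7) and 2 lower (Alkbh2 and Alkbh3), and both scalings gave 1 higher (Alkbh5) and 2 lower. For shScram from MCE to Diff the count of 1 became 0 with both scalings and GC correction, and 2 when fitted on the libraries compared alone and with array weights. For shFto from Pre to MCE the count of 2 became 5 when fitted on the libraries compared alone and 6 with array weights, and both scalings gave 1 higher (Alkbh5) and 1 lower (Alkbh3) in place of 2 lower. For that change 50.1% of all genes were called on the libraries compared alone and 53.7% with array weights, against 28.7% in the main fit. For shFto from MCE to Diff the count of 2 became 1 without a filter and with GC correction, and 0 with both scalings. The 1 with GC correction was Alkbh6, lower at -0.59, and both rises were lost there. Array weights gave both shScram Pre libraries the same weight of 0.0941 (2.72 at most for the others). The causes were not tested.

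The replicate numbers did not pair the samples. Between groups, the 15 correlations of the replicate differences were -0.29 to 0.17, with 2 over 0.1. With the replicate block the counts were 1 in Pre and 0 at MCE, and it changed no other count of calls.

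With 1 library left out, the counts ranged from 0 to 7 in Pre, 0 to 4 at MCE, 1 to 3 at Diff and 2 to 7 for the mean of stages, and from 0 to 4 for the difference between stages. For the stage changes they ranged from 2 to 7 and 0 to 3 in shScram, and from 1 to 5 and 0 to 3 in shFto. For the mean of stages the count was highest in the fits without a shScram Pre library. The share of all genes called was also highest in those fits, so the rise is not particular to the family. The 4 calls of a difference between stages came without shScram Pre replicate 2. In each fit with 1 library left out, the permutation p for Fto was the lowest that the design allows. It reflects only that the lines did not overlap. A fit without replicate 1 of both shScram Pre and shScram Diff, chosen after seeing the data, gave 1 in Pre, 3 at MCE, 5 for the mean of stages, 1 for the difference between stages, 3 for shScram from MCE to Diff and 5 for shFto from Pre to MCE.

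Counts over all genes also moved. In Pre 4510 genes were called, against 0 to 10025 in the alternatives. The 0 came from limma on the 4 Pre libraries alone, where 2790 genes had an unadjusted p under 0.05. At MCE the range was 1215 to 7021 around 2838, at Diff 1639 to 7290 around 3391, for the mean of stages 4918 to 10765 around 6835 and for the difference between stages 585 to 9540 around 1386. For the stage changes the ranges were 504 to 10338 around 6236 and 1605 to 8309 around 4023 in shScram, and 2548 to 8569 around 4585 and 2013 to 9285 around 4256 in shFto.

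None of the values that changed sign had been called in the main fit. Some were called in an alternative, such as Alkbh2 from Pre to MCE in shScram, called at -0.65 with GC correction. That value was 0.31 without replicate 2 of shScram Pre. The mean effect of Alkbh4 was 0.43 without replicate 2 of shScram Pre and -0.088 without replicate 1. With GC correction the reversed log2 values were, for the knockdown, Alkbh2 at Diff -0.071, Alkbh3 in Pre -0.067, at MCE -0.0099 and as the mean -0.058, Alkbh4 as the mean -0.13, Alkbh6 at Diff -0.0077, and Alkbh8 in Pre 0.10 and as the mean 0.018. For MCE to Diff they were Alkbh4 -0.15 and Alkbh8 -0.082 in shScram, and Alkbh2 -0.041, Alkbh4 -0.12, Alkbh5 -0.071 and Alkbh8 -0.24 in shFto. For Pre to MCE in shFto they were Alkbh6 0.24 and Alkbh7 0.17. With median-ratio scaling they were Alkbh3 -0.013 and Alkbh8 -0.044 for the knockdown at MCE, Alkbh4 -0.24 for shScram MCE to Diff, Alkbh4 -0.072, Alkbh5 -0.090 and Alkbh8 -0.094 for shFto MCE to Diff, and Alkbh6 0.18 and Alkbh7 0.15 for shFto Pre to MCE. With quantile normalization they were Alkbh3 -0.069, Alkbh7 -0.0096 and Alkbh8 -0.056 for the knockdown at MCE, Alkbh3 -0.037 for the mean, Alkbh4 -0.25 for shScram MCE to Diff, Alkbh2 -0.13, Alkbh4 -0.11 and Alkbh8 -0.19 for shFto MCE to Diff, and Alkbh6 0.12 and Alkbh7 0.12 for shFto Pre to MCE. Without the 2 shScram libraries they were Alkbh3 0.041 and Alkbh4 0.0097 for the knockdown at Diff, and Alkbh4 -0.055 for the mean, -0.34 for shScram Pre to MCE and -0.088 for shScram MCE to Diff.

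Among fits with 1 library left out, the values that changed sign ranged as follows. For the knockdown, Alkbh2 at Diff ran from -0.11 to 0.50, Alkbh3 at Diff from -0.11 to 0.041, Alkbh4 at Diff from -0.19 to 0.0097 and as the mean from -0.088 to 0.43, and Alkbh8 at MCE from -0.14 to 0.17. For Pre to MCE, Alkbh2 ran from -0.90 to 0.31 and Alkbh4 from -0.34 to 1.20 in shScram, and Alkbh6 from -0.11 to 0.0073 in shFto. For MCE to Diff, Alkbh4 ran from -0.088 to 0.11, Alkbh5 from -0.17 to 0.035 and Alkbh6 from -0.23 to 0.056 in shScram, and Alkbh2 from -0.058 to 0.55 and Alkbh4 from -0.048 to 0.30 in shFto. Where this left 1 library in a group, its spread was taken to be that of the other groups.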

Other observations

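Oxoglutarate is the co-substrate of AlkB enzymes, and succinate is their product. Of 15 genes that make or use these metabolites, 5 were higher and 3 lower in shFto over the stages (limma, adjusted over all genes), a share of 53.3% beside 42.8% of all genes. Ogdh, a subunit of oxoglutarate dehydrogenase, had a log2 difference of 0.56 ± 0.06 SE, while Glud1, which makes oxoglutarate from glutamate, had -0.61 ± 0.07 SE and Idh3a, a subunit of mitochondrial isocitrate dehydrogenase, -0.58 ± 0.08 SE. The median over the list was 0.19.

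Of 7 proliferation genes, 2 were called higher over the stages, Rrm2 (log2 1.15) and Mcm5 (log2 0.95), against 24.5% of all genes. In Pre 2 were higher and 2 lower (Ccna2 and Mki67), against 15.9% and 12.3% of genes, at MCE 2 were higher and 1 lower (Ccnb1), against 10.5% and 7.26%, and at Diff 6 were higher and 0 lower, against 11.9% and 9.31%. Of 6 fibroblast markers 4 were called over the stages, all higher in shFto, against 24.5% of all genes called higher. Col3a1 was at 1.21 and Thy1 at 0.94. Of the same list Pdgfra was lower in Pre (-0.67) and Dlk1 at MCE (-1.32). Of 7 tested adipocyte markers 5 were lower over the stages, against 18.3% of genes, with Cd36 at -2.80 and Fabp4 at -1.65. At MCE 4 and at Diff 6 were called lower, against 7.26% and 9.31% of genes. In Pre 0 were lower and 1 was higher, against 15.9% of genes called higher. Cebpa at Diff was at 5.77 and 5.19 TPM in shFto against 5.01 and 3.77 TPM in shScram. None of 7 markers of blood, endothelial and epithelial cells passed the filter, and their summed TPM was 0.170 to 1.78 in all libraries.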
